A study of Rattus norvegicus with 10 samples.

Results

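The genes described are 10 rat genes that move sterols and bile across liver cell membranes, together with the liver X receptors (LXR). They are the sterol efflux transporters Abca1, Abcg5 and Abcg8, the bile transporters Abcb11, Abcb4, Abcc2, Abcc3 and Slc10a1, and the receptor genes Nr1h3 (LXR alpha) and Nr1h2 (LXR beta). They were chosen by name. Each probe set that the array annotation pairs with exactly 1 of these genes was taken by itself, which gave 14 probe sets of 10 genes. The whole array holds 20826 probe sets of 14217 genes that are paired with 1 gene. Abca1 was measured by 4 probe sets, Nr1h2 by 2, and the remaining genes by 1 each.

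The livers came from 10 male Sprague-Dawley rats, and the RNA of each rat was hybridized to 1 Affymetrix rat genome array. The rats were 5 weeks old per the labels, while the text of the study describes younger rats. In the iron-deficient group, 5 rats ate freely for 3 days from a feed from which ferric citrate had been left out, with about 3 ppm iron. In the pair-fed group, 5 rats received the same feed with 48 ppm iron, in amounts matched to the intake of the first group. All rats had been accustomed to feeding in the daytime and were killed 1.5 h after feeding, so the values describe whole liver soon after a meal. The source field of the control labels names the iron-deficient diet, while their title and treatment fields name the control diet, and the grouping follows the latter.

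Liver cells secrete cholesterol into bile through a transporter that is assembled from the Abcg5 and Abcg8 proteins, and they load cholesterol onto apolipoprotein A-I at the blood side through Abca1. LXR proteins bind oxidized sterols and act with the retinoid X receptor on DNA elements near genes of sterol disposal, among which Abca1, Abcg5 and Abcg8 are known targets. Bile salts enter the hepatocyte from portal blood through Slc10a1 (also called NTCP) and leave it into the bile canaliculus through Abcb11 (the bile salt export pump). Abcb4 moves phosphatidylcholine into the canalicular membrane, where bile salts take it up together with cholesterol.

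Values are log2 signals, so that a difference of 1 is a doubling. The rank products method, which the study's methods apply to these values, sets each iron-deficient array against each pair-fed array, ranks the probe sets by their difference in every one of these 25 comparisons and combines the ranks. A probe set is called up-regulated or down-regulated here at a false discovery rate (FDR) under 0.05. Over all 31042 probe sets tested, 94 were up-regulated (0.303%) and 175 were down-regulated (0.564%). By limma, whose test weighs how much the rats of a group vary, the lowest adjusted p was 0.397, so that 0 sets were called, and 2168 had an unadjusted p under 0.05 (6.98%).

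The array medians lay between 6.19 and 6.22. Iron-deficient replicate 1 lay farthest from the other arrays, with a mean correlation of 0.9915, and had the highest 3' minus 5' difference of the beta-actin control probe sets, 1.74. None of the markers of hepatocytes (8 genes), bile duct cells (6), Kupffer cells (7), endothelial cells (4) or stellate cells (5) was called. Of 6 red cell markers 5 were down-regulated by their brightest probe set, with Hemgn at -1.23 (SE 0.247), Ahsp at -1.08 (SE 0.265) and Alas2 at -0.96 (SE 0.232) on the log2 scale. The remaining gene, Kel, stood at 0.04 by its brightest set and was down-regulated by its dimmer set at -0.56 (SE 0.144, FDR 0.00845). The summed red cell signal was 13.15 to 13.83 in the iron-deficient and 13.71 to 14.34 in the pair-fed group, and that of the stellate markers 12.36 to 13.02 and 12.15 to 12.37. The stellate sum mostly follows 1 gene, Col3a1, with a mean of 12.18 where the next brightest, Lrat, had 9.01. Singly, 4 of 5 stellate genes were higher in the iron-deficient group and Des was lower, at -0.06. The summed Kupffer cell signal was 12.47 to 12.94 and 12.57 to 13.32, and 6 of 7 of its genes were lower in the iron-deficient group. All 4 endothelial genes were higher in that group, with a summed signal of 12.40 to 12.48 against 12.26 to 12.40. The part of these shifts in the results that follow was not tested, and in RNA of whole liver fewer cells of a type and less RNA per cell cannot be told apart.

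Of the 14 probe sets, 2 were up-regulated, 2 were down-regulated and 10 were not called. Both up-regulated sets belong to Abca1, and the down-regulated sets are those of Abcg5 and Abcg8. The genes for bile transport and for the receptors had no called probe set. The limma test gave an unadjusted p under 0.05 for 4 of the 14, the same sets, and an adjusted p of 0.662 or 0.673 for them. At 0 of the 14 were the groups free of overlap, against 1.29% of all probe sets. The median log2 difference was 0.00 over the 14 sets and 0.00 over all probe sets, with 7 of the 14 higher and 7 lower. These genes were chosen with the calls for Abca1, Abcg5 and Abcg8 already known, so their share of calls against the background is a description.

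**Figure D1:**
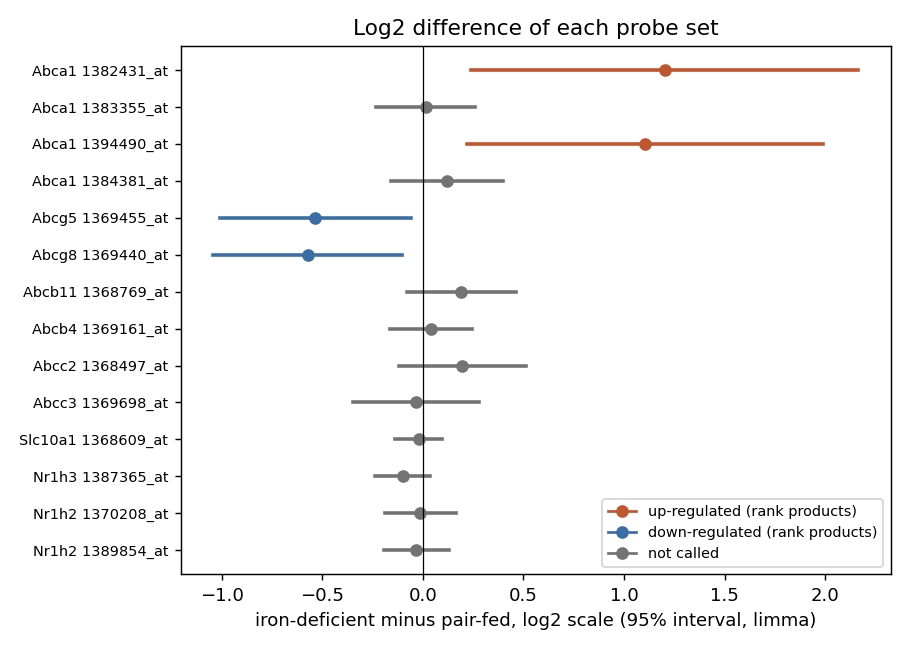
Log2 difference between the iron-deficient and the pair-fed group for each of the 14 probe sets, as points with 95% intervals from limma (5 rats per group). The intervals of 2 Abca1 sets lie above 0, those of Abcg5 and Abcg8 lie below 0, and those of the other 10 sets include 0.

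Abca1, which exports cholesterol and phospholipid to lipid-poor apolipoprotein A-I, was up-regulated by probe set 1382431_at. Its signals in iron-deficient replicates 1 to 5 were 11.00, 11.58, 10.96, 11.51 and 11.55, and in pair-fed replicates 1 to 5 they were 8.68, 10.67, 10.74, 9.07 and 11.45. Pair-fed replicates 1 and 4 stood far below all other rats, pair-fed replicate 5 lay among the iron-deficient rats, and 3 of 5 iron-deficient rats exceeded every pair-fed rat. The means were 11.32 ± 0.31 and 10.12 ± 1.19 (SD, n = 5 each), a log2 difference of 1.20 (SE 0.443), which is 2.30-fold (95% interval 1.18 to 4.48). It ranked 11 among all probe sets in the upward direction, and no permuted rank product was as small (FDR 0). The exact permutation test, 2-sided, gave p = 0.0397, where the smallest value possible for 5 against 5 is 0.00794.

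The second up-regulated Abca1 set, 1394490_at, followed the first closely. It read 9.83, 10.32, 9.63, 10.03 and 10.35 in the iron-deficient rats and 7.70, 9.37, 9.48, 7.90 and 10.20 in the pair-fed rats, again with pair-fed replicates 1 and 4 lowest. The log2 difference was 1.10 (SE 0.407), rank 14 in the upward direction, with p = 0.0556 by the exact permutation test. Across the 10 rats both sets had a Pearson r of 0.995 (permutation p = 1e-05, the smallest that 100000 resamples give) and a Spearman rho of 0.976 (permutation p = 4.0e-05). Adjusted over the 6 pairs of Abca1 sets these are 6.0e-05 and 0.00024, and without the farthest arrays, pair-fed replicates 1 and 4, r was 0.969.

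The size of the rise rests on these pair-fed rats. Both sets stayed up-regulated in each of the 10 fits that left out 1 array, with log2 differences for 1382431_at of 0.84 without pair-fed replicate 1 and 0.94 without pair-fed replicate 4. With both left out, an alternative chosen after seeing the data, the differences were 0.37 and 0.35, at an FDR of 0.151 and 0.182, and neither set was called.

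The other Abca1 sets showed no such difference. Probe set 1383355_at read 10.37 and 10.40 in iron-deficient replicates 1 and 3 and 9.93 to 10.07 in the rest of that group. It read 10.36 and 10.31 in pair-fed replicates 1 and 4 and 9.95 to 10.09 in the rest. The rats high at this set were thus the lowest of each group by 1382431_at. Its log2 difference was 0.01 (SE 0.113), with a 95% interval of 0.85- to 1.20-fold. Its Pearson r with 1382431_at was -0.61 (permutation p = 0.0564, adjusted over the same 6 pairs 0.107) and its Spearman rho -0.55 (permutation p = 0.106, adjusted 0.202), and r was -0.44 without pair-fed replicates 1 and 4 and -0.81 on deviations from the group means.

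Probe set 1384381_at of Abca1 read 8.54, 7.89, 8.26, 7.69 and 8.11 in the iron-deficient and 7.99, 7.95, 7.90, 8.02 and 8.03 in the pair-fed rats. The iron-deficient rats lay on both sides of a narrow pair-fed group, with an SD of 0.33 against 0.05. The difference of 0.12 (SE 0.129) was not called. This set followed 1383355_at, with a Pearson r of 0.69 (permutation p = 0.0152, adjusted over the 6 pairs 0.0455) and a Spearman rho of 0.68 (permutation p = 0.0344, adjusted 0.103), and r was 0.43 without iron-deficient replicates 1 and 3. All 4 sets are annotated with expressed sequence tags, which are short cDNA reads, and where in the Abca1 transcript each one lies was not analysed here, so the values of Abca1 as a whole gene depend on the probe set.

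**Figure D2:**
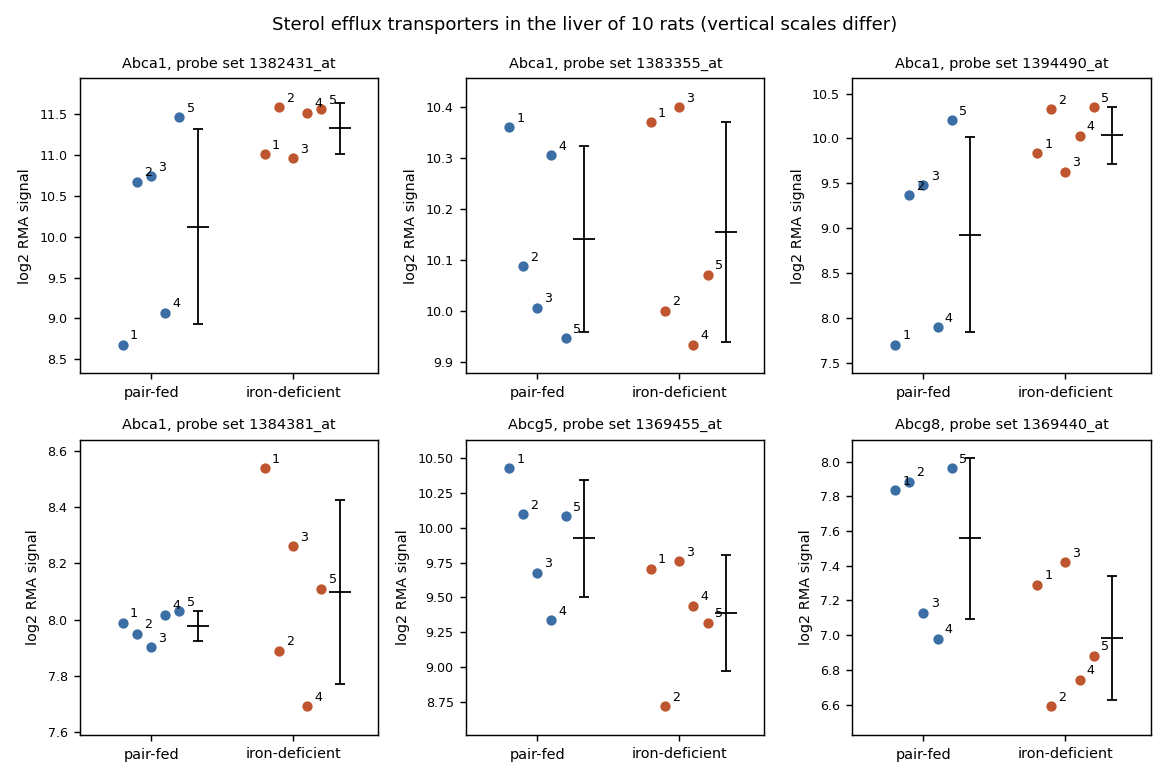
Log2 signal of the 4 Abca1 probe sets, Abcg5 and Abcg8, with 1 numbered point per rat (the number is the replicate and pairs no rats) and bars for the mean ± SD of 5 rats. Pair-fed rats 1 and 4 are low at Abca1 sets 1382431_at and 1394490_at and high at 1383355_at, while all iron-deficient rats lie under the pair-fed median at Abcg5 and Abcg8.

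The promoter of Abca1 is shown for its LXR element, a direct repeat of the receptor's binding site with a gap of 4 bases (known as DR4), which is known from the literature and was searched for because of it. In RefSeq's table for assembly GRCr8 a relaxed form of this motif, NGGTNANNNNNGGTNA on either strand, was found on the strand opposite to the gene, 70 bases before the start that this table uses for Abca1 (72596473). The outermost end of the gene in RefSeq's gene table is 72596563, so the match lies within the gene's full span, and which transcripts include it was not analysed here. The window lies on the minus strand at chr5:72596524-72596547, and the match is in capitals.
Abca1: cgttTGACCGGTAGTAACCCcggc
The same letters occurred in 226 of 33465 promoters (0.675%), each taken from 250 bases before to 50 after a start. Of the 8 genes described here with an entry in that table, Abca1 was the 1 with a match. A match of letters is a description and was set against no binding data.

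Abcg5 and Abcg8, whose proteins form the heteromeric sterol transporter of the canalicular membrane, were both down-regulated. Their genes stand head to head on chromosome 6 of GRCr8. Abcg5 runs along the plus strand from 15717936 and Abcg8 along the minus strand from 15717730. The 205 bases between both starts, chr6:15717731-15717935, are printed on the plus strand because each gene has them as its upstream sequence. Capitals mark a GATAAG match at bases 81 to 86 and, at bases 193 to 197, an ATTGG, which reads CCAAT on the other strand.
Abcg5-Abcg8: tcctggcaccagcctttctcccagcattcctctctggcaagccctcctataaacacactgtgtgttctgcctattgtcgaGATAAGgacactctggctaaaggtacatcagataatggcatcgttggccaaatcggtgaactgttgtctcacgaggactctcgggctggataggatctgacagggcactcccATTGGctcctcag
The region is 52.2% G and C, and it also holds TATAAA at bases 48 to 53 on the plus strand. Searched on both strands, GATAAG occurred in 7.05%, CCAAT in 37.5% and TATAAA in 14.2% of the promoter windows described above. The relaxed DR4 motif had no match in either promoter window.

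Abcg5 (1369455_at) read 9.71, 8.72, 9.76, 9.44 and 9.32 in the iron-deficient rats and 10.43, 10.10, 9.68, 9.34 and 10.08 in the pair-fed rats. All 5 iron-deficient rats lay below the pair-fed median, but the groups overlapped, since pair-fed replicates 3 and 4 lay among the iron-deficient rats. The means were 9.39 ± 0.42 and 9.92 ± 0.42 (SD, n = 5 each). The log2 difference was -0.53 (SE 0.219), 0.69-fold with a 95% interval of 0.50 to 0.96, at an FDR of 0.0146, and p = 0.103 by the exact permutation test.

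Abcg8 (1369440_at) read 7.29, 6.59, 7.42, 6.74 and 6.88 in the iron-deficient rats and 7.84, 7.88, 7.13, 6.98 and 7.96 in the pair-fed rats. As for Abcg5, pair-fed replicates 3 and 4 were the lowest of their group and all iron-deficient rats lay below the pair-fed median. The means were 6.99 ± 0.36 and 7.56 ± 0.46 (SD, n = 5 each). The log2 difference was -0.57 (SE 0.216), 0.67-fold with a 95% interval of 0.49 to 0.93, at an FDR of 0.00870, and p = 0.0714 by the exact permutation test.

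Both calls depended on single rats. Abcg5 was called in 6 of 10 fits with 1 array left out and lost its call without iron-deficient replicate 2 (-0.37) or without pair-fed replicate 1 (-0.41), 2 (-0.49) or 5 (-0.49). Abcg8 was called in 7 of 10, not without pair-fed replicate 1 (-0.50), 2 (-0.49) or 5 (-0.47). Without pair-fed replicates 1 and 4 together, Abcg5 stood at -0.56 (FDR 0.104, not called) and Abcg8 at -0.67 (FDR 0.0402, called).

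Abcg5 and Abcg8 varied together from rat to rat. Over the 10 rats their Pearson r was 0.92 (permutation p = 7.0e-05, adjusted over 6 pairs of the genes described here 0.00042) and their Spearman rho 0.92 (permutation p = 0.00062, adjusted 0.00372). Without iron-deficient replicate 2 and pair-fed replicate 1, the rats farthest from the median of Abcg5, r was 0.96. Within the groups, on deviations from the group means, r was 0.88 (permutation p = 0.00184, adjusted 0.0110). The rat with the lowest value of both genes was iron-deficient replicate 2.

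**Figure D3:**
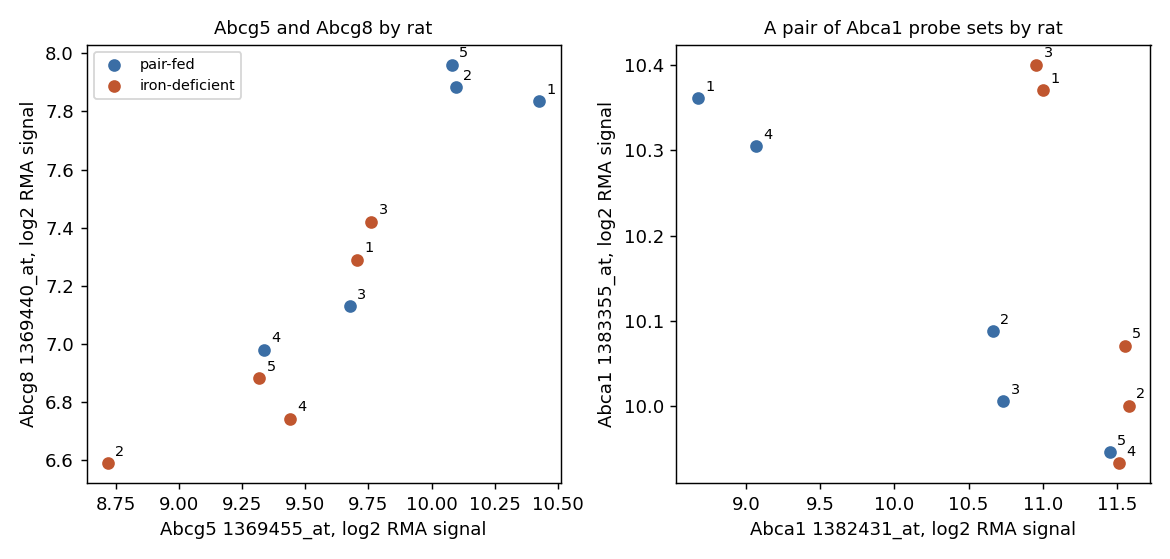
Log2 signals of Abcg5 against Abcg8 (left) and of Abca1 probe sets 1382431_at against 1383355_at (right), with 1 point per rat, numbered by replicate and coloured by diet. Abcg5 and Abcg8 rise together across both groups (r = 0.92), while the r of the Abca1 sets was -0.61 (permutation p = 0.0564, adjusted 0.107).

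Of the bile transporters, none was called. Abcb11, the bile salt export pump, read 11.88, 11.45, 11.35, 11.99 and 11.60 in the iron-deficient rats and 11.18, 11.53, 11.57, 11.54 and 11.49 in the pair-fed rats. Iron-deficient replicates 1, 4 and 5 were above every pair-fed rat, and the pair-fed mean was drawn down by replicate 1. The log2 difference was 0.19 (SE 0.124), with a 95% interval of 0.95- to 1.38-fold, and p = 0.230 by the exact permutation test.

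Abcc2, which exports bilirubin and other conjugates into bile, read 11.00, 11.54, 10.94, 11.59 and 11.56 in the iron-deficient rats and 10.90, 11.22, 11.32, 10.92 and 11.28 in the pair-fed rats. Each group fell into higher and lower rats, and the low rats were iron-deficient replicates 1 and 3 and pair-fed replicates 1 and 4, the rats that were high at Abca1 set 1383355_at. The log2 difference was 0.20 (SE 0.145), with a 95% interval of 0.92- to 1.43-fold, and p = 0.262 by the exact permutation test.

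Abcb4, the phosphatidylcholine translocator, was 9.22 to 9.73 in the iron-deficient and 9.38 to 9.62 in the pair-fed rats, with iron-deficient replicate 2 lowest of all. Its log2 difference was 0.04 (SE 0.095), with a 95% interval of 0.89- to 1.19-fold. Abcc3, which sends conjugates back to blood at the basolateral membrane, ranged from 5.97 to 6.75 and from 6.08 to 6.71. Its log2 difference was -0.03 (SE 0.145), with an interval of 0.79- to 1.22-fold. Slc10a1, the sodium-dependent bile salt uptake carrier, was the steadiest of the 14 sets, with all 10 rats within 0.119 of each other on the log2 scale. It ranged from 13.64 to 13.73 in the iron-deficient and from 13.66 to 13.76 in the pair-fed rats, a log2 difference of -0.02 (SE 0.054) with an interval of 0.91- to 1.07-fold. The Slc10a1 mean of 13.69 lay above that of 99.7% of all probe sets, and whether signals this bright can show a change was not tested.

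From rat to rat the coefficients between bile transporters were lower than that of Abcg5 and Abcg8, a difference that was not tested. Abcb11 and Abcb4 had a Pearson r of 0.47 (permutation p = 0.166, adjusted 0.318) and a Spearman rho of 0.71 (permutation p = 0.0267, adjusted 0.0802), and r was 0.36 without the 2 farthest rats. Abcb11 and Slc10a1, export and uptake of bile salts, had an r of 0.02 (permutation p = 0.962, adjusted 0.962) and a rho of -0.08 (permutation p = 0.837, adjusted 0.837). For Abcc2 and Abcc3, the canalicular and the basolateral export of conjugates, r was -0.39 (permutation p = 0.265, adjusted 0.318) and rho -0.32 (permutation p = 0.369, adjusted 0.443).

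**Figure D4:**
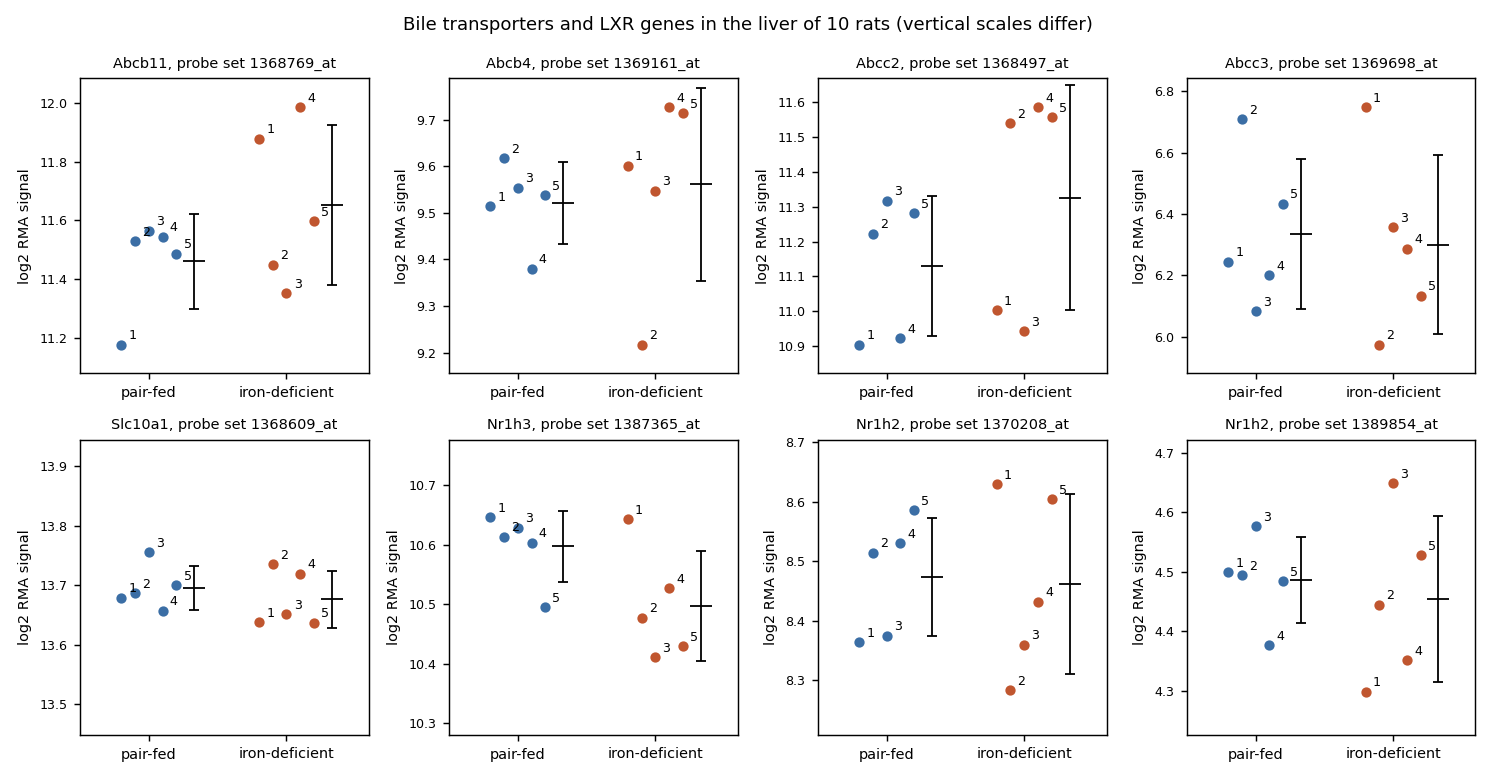
Log2 signal of the 5 bile transporters, Nr1h3 and both Nr1h2 probe sets, with 1 numbered point per rat and bars for the mean ± SD of 5 rats per group. The groups overlap in every panel, and the Slc10a1 values span only 0.119.

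The LXR genes were not called. Nr1h3, the LXR form that is prominent in liver, read 10.64, 10.48, 10.41, 10.53 and 10.43 in the iron-deficient rats and 10.65, 10.61, 10.63, 10.60 and 10.49 in the pair-fed rats. Iron-deficient replicate 1 and pair-fed replicate 5 each lay with the other group, and 4 of 5 iron-deficient rats were below the pair-fed median. The log2 difference was -0.10 (SE 0.063), with a 95% interval of 0.85- to 1.03-fold, and p = 0.0952 by the exact permutation test.

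Nr1h2, the widely expressed LXR form, was 8.28 to 8.63 in the iron-deficient and 8.36 to 8.59 in the pair-fed rats by 1370208_at. Its log2 difference was -0.01 (SE 0.082), with an interval of 0.88- to 1.12-fold. The second Nr1h2 set, 1389854_at, was dim, with a mean of 4.47 where the median over all probe sets was 6.21. Its log2 difference was -0.03 (SE 0.075).

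Transporter and receptor values were also set against each other across rats. Abca1 (1382431_at) and Nr1h3 had a Pearson r of -0.61 (permutation p = 0.0551, adjusted 0.165) and a Spearman rho of -0.64 (permutation p = 0.0542, adjusted 0.108). That r was -0.61 without pair-fed replicates 1 and 4 and -0.40 on deviations from the group means. It depended on the Abca1 probe set, since Nr1h3 had an r of -0.61 with 1394490_at, 0.23 with 1383355_at and 0.02 with 1384381_at. These coefficients were not tested. Abcg5 and Nr1h3 had an r of 0.42 (permutation p = 0.226, adjusted 0.318) and a rho of 0.47 (permutation p = 0.177, adjusted 0.266), and r was 0.13 without the 2 farthest rats.

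Genes around the transporters were read from lists, with the brightest probe set for each gene. Over all probe sets 0.303% were up-regulated and 0.564% down-regulated, and the counts of the lists were not tested against these shares. Among 13 measured LXR target genes other than the transporters above, 1 was up-regulated, 1 was down-regulated and 11 were not called, and the median log2 difference was 0.00. Scd, the stearoyl-CoA desaturase, read 12.87, 13.46, 12.86, 12.15 and 13.18 in the iron-deficient rats and 11.00, 12.31, 12.31, 13.21 and 11.02 in the pair-fed rats. Its log2 difference was 0.93 (SE 0.386), with pair-fed replicates 1 and 5 lowest, and p = 0.103 by the exact permutation test. Cyp7a1, the rate-limiting enzyme of bile acid synthesis, fell by 0.95 (SE 0.369) on the log2 scale, and the lowest rat was iron-deficient replicate 1 at 7.80. Its groups overlapped, with p = 0.0556 by the exact permutation test. The LXR partners and cofactors (8 genes measured, the retinoid X receptors among them) had no call, and their log2 differences ranged from -0.16 to 0.14.

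Of 10 measured bile acid receptors and liver regulators none was called by the brightest set, and the log2 differences ranged from -0.15 to 0.29. Onecut1, a liver transcription factor also called HNF6, was up-regulated by its dimmer probe set 1387760_a_at at 0.34 (SE 0.560), although its rats ranged from 6.95 to 9.67 in the iron-deficient and from 6.73 to 8.96 in the pair-fed group and the exact permutation test gave p = 0.619. Its brightest set was called up-regulated without iron-deficient replicate 3 (0.61), pair-fed replicate 3 (0.56) or pair-fed replicate 5 (0.51). Of 11 bile acid synthesis genes 2 were down-regulated, Cyp7a1 and the sterol 12-alpha-hydroxylase Cyp8b1 at -0.57 (SE 0.261), and 0 were up-regulated. For Cyp8b1 the exact permutation test gave p = 0.119. Without pair-fed replicate 1 the call of Cyp8b1 was lost (-0.47), and without pair-fed replicate 2 the peroxisomal oxidase gene Acox2 was called up-regulated (0.60, against 0.26 with all rats).

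Of 14 further carriers of bile acids and organic anions 1 was down-regulated, Slc10a2, the bile salt carrier known from the ileum and the bile duct epithelium. It read 6.13 to 6.62 in the iron-deficient and 6.48 to 7.15 in the pair-fed rats, a log2 difference of -0.43 (SE 0.128, FDR 0.0473), with p = 0.0238 by the exact permutation test. The call of Slc10a2 was lost in 7 of 10 fits with 1 array left out. Of 15 measured genes of sterol uptake, storage and efflux 0 were called, with log2 differences between -0.33 and 0.31. The other ABC transporters of the array, 30 genes with 40 probe sets, also had 0 called, and their brightest sets lay between -0.17 and 0.24. Without pair-fed replicate 2, 1 of them was called up-regulated, Abcd2 at 0.49, a peroxisomal transporter. With shares of 0.303% up and 0.564% down over all probe sets, 0 calls do not set such short lists apart. Abcg1, a cholesterol exporter related to Abcg5 and Abcg8, stood at -0.03 (SE 0.087). The median log2 difference was 0.09 for the receptors and regulators, -0.06 for bile acid synthesis, 0.05 for the carriers, 0.04 for sterol handling and 0.01 for the other ABC transporters, beside -0.01 over all genes by their brightest set.

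**Figure D5:**
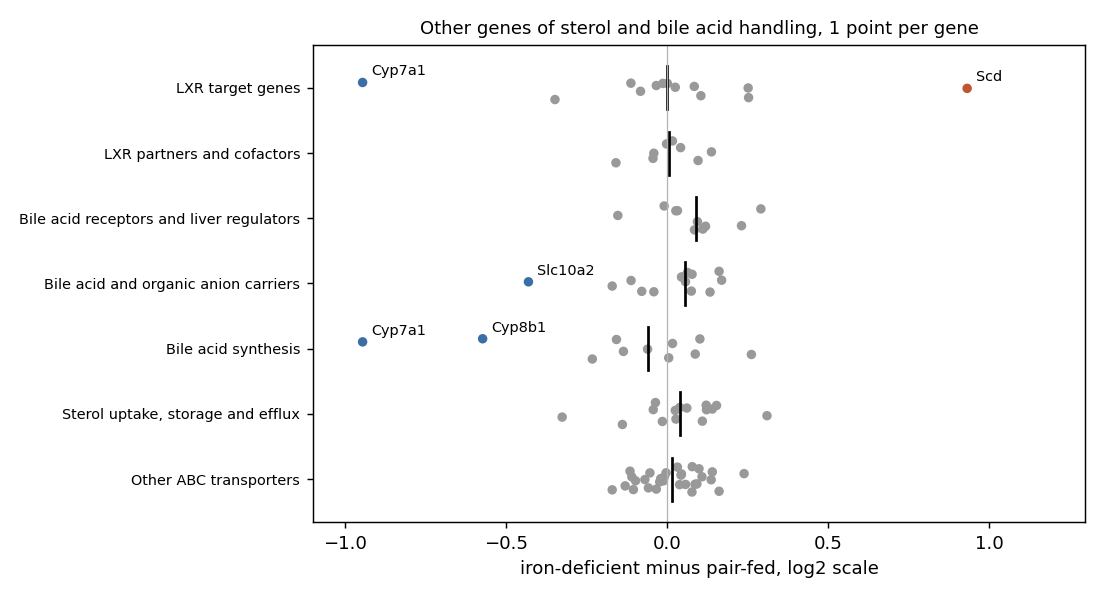
Log2 difference between the iron-deficient and the pair-fed group for the genes of each list, with 1 point per gene (brightest probe set), a black line at each list's median and names on the called genes, orange for up-regulated and blue for down-regulated. The 30 other ABC transporters lie between -0.17 and 0.24, and Scd, Cyp7a1, Cyp8b1 and Slc10a2 are the called genes.

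The genes whose values over the 10 arrays were most like those of the called transporters were sought among 9300 genes with a signal above the median. They are a description, since the highest of so many coefficients are high by selection. For Abca1 (1382431_at) they were Igip, Vgll4 and Lce3b, with a Pearson r of 0.94, 0.88 and 0.86. For Abcg5 they were Zfp637, Becn1 and Ctsa, with an r of 0.95, 0.94 and 0.93. For Abcg8 they were Pex3 (0.93), Abcg5 (0.92) and Gpn3 (0.90), so that Abcg5 was second to 1 gene of the 9300. The 3 genes most like Abcg5 did not include Abcg8. Apart from Abcg5, none of the genes found in this way was called.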

How the data were processed

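Each of 10 rats gave liver RNA for 1 Affymetrix rat genome array. The log2 signals analysed were deposited by the authors, who computed them from the scanned arrays by the robust multiarray average (RMA, also named in the submitters' processing notes) in R and Bioconductor. RMA corrects background, makes the distributions of the arrays equal and summarizes each probe set, so differences are relative to all probe sets. Of the columns of values, 0 were left out.

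The 57 control probe sets were left out and 31042 tested. The platform annotation pairs 20826 with 1 gene, 436 with several and 9780 with none. None of the sets paired with several genes held a gene described here. Rank products used 100 permutations within arrays. The software was Python 3.11.15 (scipy 1.17.1, pandas 2.3.3, numpy 2.4.6, matplotlib 3.10.9) and R 4.3.3. Its limma package, version 3.58.1, gave log2 differences, standard errors, intervals and p-values from 1 fit over all probe sets, with diet as the term and Benjamini-Hochberg adjustment. Single sets were compared by exact permutation tests over 252 assignments, and correlations by 100000 permutations. The rank products and limma were also run on simulated data, the permutation tests were not. Sequences are from RefSeq tables of GRCr8. RMA signals carry no read depth, and the number of arrays limits the precision.

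The genes and lists were chosen with earlier results of these data known. Named are all 10 genes, up to 3 called genes of each list with the largest change, and the 3 genes most like Abca1, Abcg5 and Abcg8. Abcg1, Acox2, Abcd2 and the comparison among the Abca1 sets were singled out after the values were seen. Alternatives were limma, blocks by replicate number, centring, quantile normalization, omission of dim probe sets, gene means, and omission of each array.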

Additional observations from a re-analysis of the deposited data

Results flagged for a closer look

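In 28 groups of 5 rats (14 probe sets in each diet group), Dixon's criterion singled out 2 values, where chance gives about 1 group in 20. Pair-fed replicate 1 had an Abcb11 (1368769_at) signal of 11.18, while the other pair-fed rats lay between 11.49 and 11.57. Pair-fed replicate 5 had an Nr1h3 (1387365_at) signal of 10.49, while the other pair-fed rats lay between 10.60 and 10.65. Neither gene was called with or without these rats.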

How the results depend on the processing

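In place of the rank products, limma called 0 of all probe sets in either direction and 0 of the 14 up or down, where 2168 and 4 had an unadjusted p under 0.05. limma with the replicate number as a block also called 0. Same-numbered rats did not deviate together (correlations of -0.04 to 0.09, 1 of 5 best with its own number), and rank products on the 5 same-numbered pairs, the other form of this block, kept all 4 calls, at an FDR of 0.000909 and 0.00214 for Abca1, 0.0368 for Abcg5 and 0.0167 for Abcg8. With dim probe sets left out (those below the median signal), 55 sets were up-regulated and 108 down-regulated. All of these were also called with all probe sets, and 2 up and 2 down were kept among the 14. Leaving out 1 array gave 47 to 99 up and 90 to 190 down over all sets, and 2 to 2 up and 0 to 2 down among the 14. Without pair-fed replicates 1 and 4 together, chosen after seeing the data, 0 of the 14 were up and 1 down. The 10 sets not called remained so in all 150 combinations of a set (or gene mean) and an alternative of the rank products, and 14 combinations turned the sign. With 1 array left out, the range was -0.047 to 0.069 for Abca1 1383355_at, -0.00091 to 0.13 for Abcb4, -0.15 to 0.060 for Abcc3, -0.054 to 0.032 for Nr1h2 1370208_at and -0.081 to 0.0069 for Nr1h2 1389854_at. Abcb4 stood at -0.0086 without pair-fed replicates 1 and 4. The correlation of Abcb11 and Slc10a1 was -0.079 by rank and -0.23 to 0.27 with 1 array left out. The cause of these changes was not tested. For the gene lists, 30 of 442 counts of called genes moved by over 1.5 times, or to or from 0. Among them are counts under limma, which called no probe set, and that of bile acid synthesis on the same-numbered pairs (1 up, Acox2).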
